A study of Mus musculus with 42 samples.

Results

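The 9 interferon-stimulated genes described here, Ifit1, Ifit3, Isg15, Irf7, Oasl2, Gbp2, Rsad2, Ddx60 and Gvin1, were chosen by symbol from 20442 genes measured in mouse colon, and all 9 were found in each of the 9 deposited tables. Gvin1 was selected on its level in 1 contrast, WT distal crypts after dextran sulfate sodium (DSS) against untreated WT distal crypts of the same colony, so every value of that contrast is given as a description with no test. Its values in other comparisons that use WT distal libraries of that colony (the T/T colony) are not independent of the choice, and no test of Gvin1 is read there. Every call counted in those comparisons is one of the other 8 members. All 9 genes passed the minimum level of 10 normalized counts in every comparison.

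RNA-seq was performed on 42 libraries in 14 groups, in which colon segment, DSS injury, Mtg16 genotype and tumors were compared. Mtg16 (Cbfa2t3) encodes a transcriptional corepressor. Mice were C57/BL6 and at least 8 weeks old, and Mtg16-/- mice and homozygous P209T (T/T) mice came from separate colonies, each with its own WT littermates. The T/T mutation is a proline-to-threonine change that weakens MTG16 binding to E proteins, and both alleles were present in every tissue of the animal. In the Mtg16-/- colony the libraries came from untreated proximal crypts (2 WT and 2 Mtg16-/-), untreated distal crypts (4 WT and 4 Mtg16-/-) and distal crypts after DSS (3 WT and 4 Mtg16-/-). In the T/T colony they came from untreated proximal crypts (2 WT and 2 T/T), untreated distal crypts (3 WT and 4 T/T), distal crypts after DSS (3 WT and 3 T/T) and distal tumors (3 WT and 3 T/T). DSS mice drank 2% DSS for 5 days and then water for 4 days. Tumor mice received azoxymethane at 10 mg/kg and then 3 cycles of 3% DSS, each of 4 days on DSS and 16 days on water. Crypts were released by chelation, whereas tumors were homogenized whole. Within a group the labels give only a replicate number, so p-values measure the spread between these libraries.

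Interferons are cytokines that bind receptors on almost every cell type and switch on a shared set of genes that restrict viruses and other intracellular microbes. Type I and type III interferons act on genes that carry the interferon-stimulated response element, and interferon gamma acts through a receptor of its own on a partly shared set. In the gut, epithelial cells respond strongly to type III interferon, and many of these genes carry a basal level of expression without infection.

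The members fall into a few roles. Irf7 encodes the transcription factor that amplifies type I interferon production. Ifit1 and Ifit3 encode proteins that bind viral RNA or each other, Isg15 a ubiquitin-like modifier, Oasl2 an oligoadenylate synthetase-like protein, Rsad2 the antiviral enzyme viperin and Ddx60 a helicase-family protein. Gbp2 encodes a guanylate-binding GTPase that is strongly induced by interferon gamma, and Gvin1 a very large interferon-inducible GTPase.

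Promoter sequence is shown first because a shared 10-base pattern was found in most members that the choice of genes did not use. RefSeq promoter sequence (GRCm38.p6) was given for 8 of the 9 members, all except Gvin1, and the 250 bases before each start were searched on both strands for GAAANNGAAA, the core spacing of an interferon-stimulated response element. The pattern was found in 6 of the 8 (Ifit1, Ifit3, Isg15, Gbp2, Rsad2 and Ddx60) and in 2.98% of all 32851 promoter windows, or 3.46% of 27025 genes. It was not in these letters of the Irf7 and Oasl2 windows. In the stretches below, read 5′ to 3′ on the strand of the gene, capitals mark the matches, which overlap in Isg15 and read as TTTCNNTTTC where the match lies on the opposite strand. They are at chr19:34640770-34640828 on the plus strand (Ifit1), chr19:34583358-34583431 on the plus strand (Ifit3), chr4:156200860-156200911 on the minus strand (Isg15), chr12:26456548-26456587 on the minus strand (Rsad2) and chr8:61928019-61928086 on the plus strand (Ddx60).
Ifit1: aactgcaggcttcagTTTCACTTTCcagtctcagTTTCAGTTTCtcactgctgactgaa
Ifit3: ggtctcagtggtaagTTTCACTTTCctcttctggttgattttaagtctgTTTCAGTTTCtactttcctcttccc
Isg15: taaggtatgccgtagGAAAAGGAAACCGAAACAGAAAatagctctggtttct
Rsad2: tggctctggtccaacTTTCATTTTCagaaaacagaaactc
Ddx60: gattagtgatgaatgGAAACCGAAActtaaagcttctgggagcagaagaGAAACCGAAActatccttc

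Matches lay 10 to 53 bases before the start in Ddx60, 50 to 59 in Gbp2 and 57 to 78 in Isg15. In Ifit1 they spanned 76 to 104 bases before the start, in Rsad2 111 to 120 and in Ifit3 113 to 156. These are matches of letters only, since no binding was measured.

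Values below are normalized counts, that is, read counts divided by a scaling factor for each library. Where groups from different tables are set side by side, the read counts recovered from 7 of the 9 tables were scaled together over 38 libraries. Recovered reads ranged from 32231389 to 74661922 per library with a median of 46659625. A change is the difference of log2(normalized count + 1), which slightly understates the change of genes with low counts, and a gene was called at a Benjamini-Hochberg adjusted p under 0.05 in limma over all genes tested. Counts of members at an unadjusted p under 0.05 are given without the share of all genes at that limit, and nothing is read from them. Reads of the targeted gene were still counted in the nulls, with Mtg16 (Cbfa2t3) at 393 to 523 normalized counts in Mtg16-/- crypts after DSS against 1603 to 2225 in their WT littermates, and at 459 to 1169 against 1097 to 1926 without DSS.

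Some libraries stood apart in ways that touch the members. The library labelled Mtg16-/- distal replicate 2 carried proximal markers. Its Hoxb13 was 262 normalized counts (13.9 to 286 in WT proximal crypts, 18038 to 24999 in the other 14 untreated distal libraries), its Hoxd13 was 0 (0 and 3824 to 7107) and its Car1 was 462570 (544490 to 761260 and 6236 to 29502). Long transcripts were low in 4 libraries, 2 WT and 1 T/T after DSS in the T/T colony and the untreated T/T distal replicate 1. For this, each gene was first set against its own mean log2 level over the libraries scaled together. In these 4 libraries the median of genes with a longest transcript over 8000 bases lay 0.61 to 1.46 below that of genes of 2000 to 4000 bases. The next lowest library stood at -0.387. The main results that rest on either kind of library are given with and without it.

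**Figure D1:**
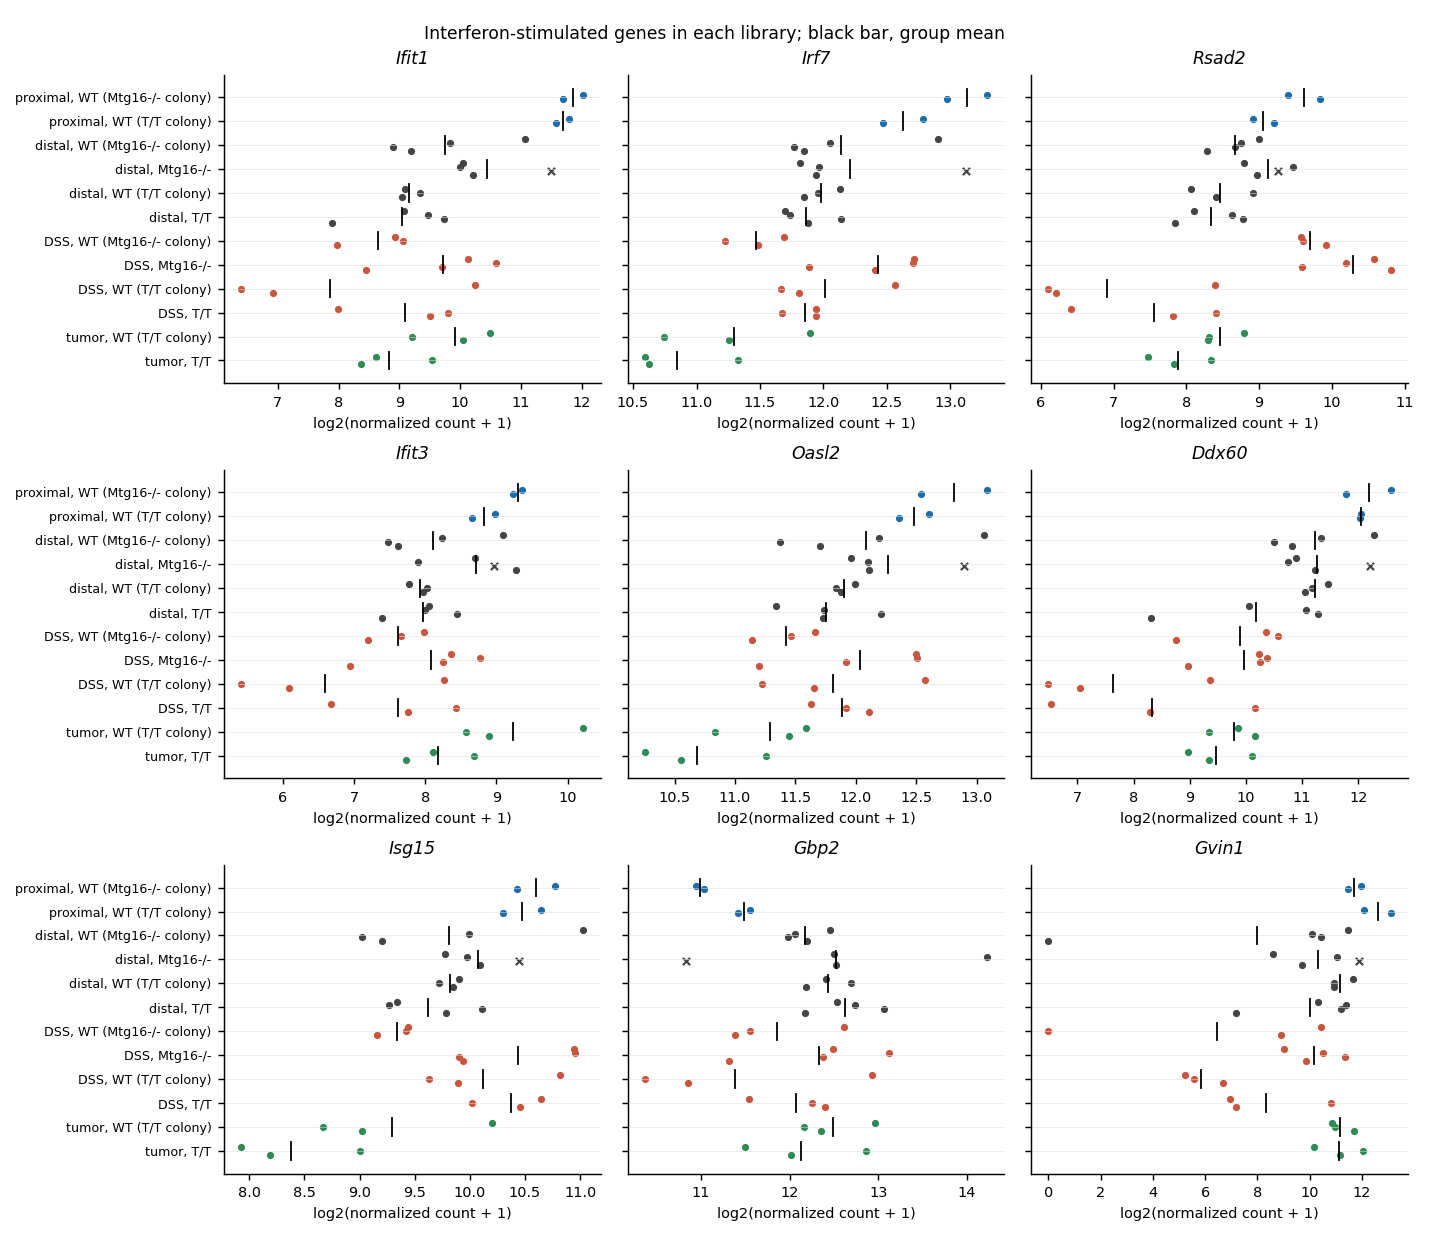
Level of each of the 9 genes as log2(normalized count + 1) in 38 libraries scaled together, by group (blue, proximal crypts; grey, untreated distal crypts; red, distal crypts after DSS; green, tumors; the bar is the group mean; the cross is the library labelled Mtg16-/- distal replicate 2). Ifit1 was highest in the 2 proximal groups (3072 to 4183 normalized counts), Gbp2 had its lowest group means there (1966 to 3007), and Gvin1 was 0 in 2 libraries.

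Over the 12 groups scaled together, 6 of the 9 genes (Ifit1, Isg15, Irf7, Oasl2, Ddx60 and Gvin1) had their highest mean in a proximal WT group. Ifit1 averaged 3756 ± 603 (SD, n = 2) and 3312 ± 339 (n = 2) normalized counts in the 2 proximal groups, which overlapped each other and stood above the next group, Mtg16-/- distal crypts at 1540. Rsad2 was highest in Mtg16-/- crypts after DSS (1315 ± 443, n = 4) and Ifit3 in WT tumors (684 ± 445, n = 3). Gbp2 had its highest mean in untreated Mtg16-/- distal crypts (8167 ± 7570, n = 4), where replicate 3 stood at 19158 and replicate 2 at 1816. At the other end, Isg15, Irf7 and Oasl2 were lowest in T/T tumors, and Ifit3, Rsad2, Ddx60 and Gvin1 in WT crypts after DSS of the T/T colony. The latter group held 2 libraries with low long transcripts, and its highest values were 307 for Ifit3, 336 for Rsad2 and 658 for Ddx60. Ifit1 was lowest in WT crypts after DSS of the Mtg16-/- colony, at 423 ± 150 (n = 3), and overlapped the next group.

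In untreated WT crypts, among the genes other than Gvin1, 5 were lower in the distal than in the proximal colon (Ifit1, Ifit3, Irf7, Rsad2 and Ddx60) and 1, Gbp2, was higher. Of these calls, 2 held with the number that opens the library names as a covariate. Among all 13841 genes tested, 42.1% were called, 20.1% higher and 22% lower, so a call was common here. The median change of the 9 members was -0.79, against 0.00475 over all genes.

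Ifit1 had the largest change among the called members. It was at 2757, 3214, 3028 and 3805 normalized counts in the 4 proximal libraries, and had a lowest value of 437, a median of 535 and a highest of 1969 over the 7 distal libraries. The groups did not overlap, and even the highest distal library, WT replicate 4 of the Mtg16-/- colony, lay below every proximal one. The log2 change was -2.27 ± 0.33 (SE), or 4.82-fold lower distally (limma adjusted p = 8.18e-05, exact two-sided permutation p = 0.00303, the smallest that 7 against 4 allows). In crypt isolates, fewer cells of a type that expresses a gene and less RNA of it per cell cannot be told apart.

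Irf7, the regulator among the members, was at 5088, 6387, 7298 and 9103 normalized counts proximally and 3199 to 6993 distally, with a distal median of 3613. The groups overlapped through the same distal library, replicate 4 of the Mtg16-/- colony, which was the highest distal library also for Ifit1, Isg15 and Oasl2. The change was -0.79 ± 0.20 (limma adjusted p = 0.00543). Ifit3 changed by -1.02 ± 0.26 (adjusted p = 0.0054), Ddx60 by -0.87 ± 0.26 (0.0153) and Rsad2 by -0.74 ± 0.20 (0.00805), each with overlapping groups. Without the proximal WT replicate 2 of the Mtg16-/- colony, Ddx60 was at -0.71 and no longer called (adjusted p = 0.0628).

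Isg15 and Oasl2 were not called. Isg15 was at 1128 to 1595 normalized counts proximally and 476 to 1912 distally, with a change of -0.71 (95% interval -1.33 to -0.09, limma adjusted p = 0.0629). Oasl2 changed by -0.63 (-1.16 to -0.10, adjusted p = 0.055). Both rested on the high distal replicate 4 of the Mtg16-/- colony, for without it the changes were -0.91 (adjusted p = 0.0016) and -0.81 (0.00113) and 8 members were called.

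Gbp2, the member most tied to interferon gamma, ran the other way. It was at 1789, 1906, 2452 and 2722 normalized counts proximally and had a lowest value of 3710, a median of 4318 and a highest of 5991 distally. The groups did not overlap, and the distal level was 2.09-fold higher (1.06 ± 0.14, limma adjusted p = 3.88e-05, exact two-sided permutation p = 0.00303).

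Gvin1 was at 2554, 3619, 3960 and 7884 normalized counts proximally. Distally it was at 0 in replicate 1 of the Mtg16-/- colony and at 985 to 2971 in the other 6 libraries. The change was -2.76, and -1.22 without the library at 0. Summed with its near-identical neighbor Gm4070, it changed by -0.98. These are descriptions with no test, since 3 of the 7 distal libraries are among those on which Gvin1 was chosen.

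**Figure D2:**
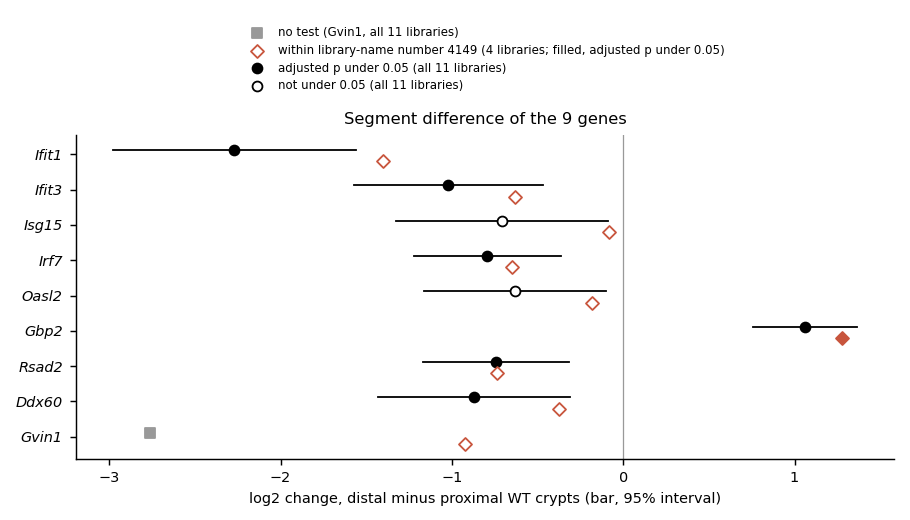
Log2 change of the 9 genes between WT distal (7 libraries) and WT proximal crypts (4 libraries), with 95% intervals (black, none for Gvin1, which is shown with no test as a grey square), and the same change within the 4 libraries whose names open with 4149 (diamonds). Ifit1 (-2.27) lay farthest below 0 among the called genes and Gbp2 (1.06) above it, and within number 4149 the changes of Ifit1 and Gbp2 were -1.40 and 1.28.

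The library names in the labels open with a number that differed between segments in part, and the WT libraries of both segments shared only number 4149, with 2 proximal and 2 distal libraries. With this number as a covariate, 2 of the genes other than Gvin1 were called, Ifit1 (-1.40, limma adjusted p = 0.00612) and Gbp2 (1.28, 0.000632). Within number 4149 alone 1 was called, Gbp2 (1.28, adjusted p = 0.0055), and Ifit1 was at -1.40 (0.0717). Over all genes the calls fell from 5824 to 3189 and 2014.

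Markers of other cells also moved with segment. The summed level of the 6 T cell markers tested was 2985 to 5979 normalized counts in proximal and 391 to 1836 in distal crypts, with 5 of them lower distally. That of the myeloid list was 1997 to 3026 and 573 to 1241, though by gene 3 of its 7 tested markers were higher distally and 2 lower. The epithelial list stood at 548570 to 649950 and 617940 to 724770, that of B and plasma cells at 11371 to 12092 and 9297 to 11877, and that of fibroblasts at 58.9 to 176 and 28.2 to 189. Plasmacytoid dendritic cell markers (1004 to 1262 and 1571 to 1767) and endothelial markers (144 to 266 and 263 to 376) summed higher distally. By gene each of these lists had 1 tested marker higher, Tcf4 (0.62) and Vwf (1.89), and 1 lower, Ccr9 (-2.03) and Pecam1 (-1.16). The part of these cells in the segment differences was not tested.

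Most called genes of the wider response lists were lower distally too. Of 46 genes on a list of type I and III interferon response genes, 21 were lower distally and 4 higher, where 22% and 20.1% of all genes were, with a median change of -0.54. The called genes with the largest changes beside Ifit1 were Ifit1bl2 (-1.98, limma adjusted p = 6.26e-06) and Usp18 (-1.61, 0.00105), a protease that removes ISG15, and on the other side Ly6e (0.97, 5.13e-05), Ifit3b (0.92, 0.00147) and Ifit1bl1 (0.70, 0.000175). Of 34 interferon gamma response genes tested, 16 were lower and 3 higher against the same shares (median -0.49). The higher ones were Gbp5 (1.12, limma adjusted p = 0.000821), Gbp2 and Tap2 (0.28, 0.00756), and Ido1, a tryptophan-degrading enzyme, was lowest against the proximal colon (-2.20, 4.39e-06). Several of these genes are members or relatives of members, and the lists are not independent of them.

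Ligands were near the floor. Of 17 interferon ligand genes on the list, only Ifng was in the joint scaling, at 0 to 26.6 normalized counts in the 38 libraries and at 10.7 to 26.6 in proximal WT crypts. Among the 6 receptor genes, Ifnar2, a subunit of the type I receptor, was lower distally (-0.91, limma adjusted p = 2.04e-05), with Ifnar1 at -0.26 (0.0184), and Ifnlr1, the type III receptor subunit, was higher (0.52, 0.000671). Of 15 signal transducers 4 were lower and 2 higher, and of 13 nucleic acid sensors and adaptors tested 4 were lower and 2 higher, where 22% and 20.1% of all genes were. Of the very large inducible GTPases 3 were tested and 1, Gm8995, was lower (-1.62, adjusted p = 0.00122).

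In untreated crypts no member was called between genotypes. In proximal crypts the count was 0 of 9 for Mtg16-/- against WT (0.0645% of all genes called) and 0 of 9 for T/T against WT (0.232%). In distal crypts it was 0 of 9 for Mtg16-/- (0.239%). With Gvin1 left out, it was 0 for T/T (0.0369%) and 0 between the WT mice of the 2 colonies (0.0368%). In limma the counts at an unadjusted p under 0.05 were 0, 0, 1, 0 and 0, and edgeR and DESeq2 called no member in the distal and colony comparisons. Gvin1 is left out of these counts for T/T distal crypts and for the colonies. With 2 against 2 proximal libraries the smallest exact permutation p is 0.333.

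Proximally, Gbp2 was the member whose groups did not overlap in either colony, in opposite directions. Its normalized counts were 4101 and 2082 in Mtg16-/- mice against 2056 and 1907 in WT, with a change of 0.56 (limma adjusted p = 0.871). In the T/T colony it was at 2312 and 959 in T/T and 2383 and 2618 in WT, a change of -0.75 (adjusted p = 0.481). Whether the effects of the 2 alleles differ was not tested. Gbp2 was called in limma without T/T replicate 1, which leaves 1 T/T library, at 959, that is assumed to vary like the others. Rsad2 also had separate groups in the Mtg16-/- colony (-0.43, limma adjusted p = 0.871).

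In untreated distal crypts of the Mtg16-/- colony, Rsad2 was at 468, 574, 655 and 415 normalized counts in the nulls against 291, 381, 403 and 476 in WT littermates. The groups overlapped, and the change was 0.44 ± 0.19 (limma unadjusted p = 0.0497, adjusted p = 1). Without the library that carried proximal markers the change was 0.40 and the count stayed at 0 of 9. That library was highest in its group for Ifit1, Isg15, Irf7, Oasl2, Ddx60 and Gvin1 and lowest for Gbp2.

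In untreated T/T distal crypts, Ddx60 was at 257, 2126, 1814 and 903 normalized counts against 1816, 1960 and 2370 in WT. The low value was that of replicate 1, whose long transcripts were low. The change was -1.06 ± 0.68 (limma adjusted p = 0.863) with it and -0.43 (0.876) without it.

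After DSS no member was called between Mtg16-/- and WT crypts in the unpaired fit. The count was 0 of 9, against 0.629% of all genes, with 2 members at an unadjusted p under 0.05, a median change of 0.59 against -0.00235 over all genes. Normalized counts of Irf7 were 5877, 4319, 7598 and 7437 in the nulls against 3159, 2756 and 3742 in WT littermates. The groups did not overlap, and the change was 0.95 ± 0.21 (limma adjusted p = 0.0855, exact two-sided permutation p = 0.0571, where 4 against 3 allows 0.0286). Without Mtg16-/- replicate 2 Irf7 was called (1.12, limma adjusted p = 0.0369).

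Those of Isg15 were 1066, 1089, 2257 and 2184 against 630, 786 and 785. These groups did not overlap either, and the change was 1.08 ± 0.30 (limma adjusted p = 0.141, exact permutation p = 0.0857). Ifit1 changed by 1.05 ± 0.48 with overlapping groups (adjusted p = 0.422). Same-numbered libraries deviated together in this comparison, and with the replicate number as a block limma called 3 members, Irf7 (0.85, adjusted p = 0.0024), Isg15 (0.92, 0.0212) and Ifit1 (0.92, 0.0402). That fit leaves out Mtg16-/- replicate 4, which has no same-numbered WT library. The labels pair no libraries, and the pairing is read from these same data. DESeq2 without the block called Irf7 (adjusted p = 0.002) and Isg15 (0.00679), and edgeR called neither (0.0851 and 0.121). Over all genes limma called 91, limma with the block 1266 and DESeq2 727.

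The levels of myeloid markers differed in the same libraries. Their summed level was 6002 to 18237 normalized counts in Mtg16-/- crypts after DSS and 1195 to 3748 in WT, and the part of these cells in the Irf7 and Isg15 values was not tested. The difference between genotypes in the DSS effect was not called for any member (0 of 9, against 0% of all genes, limma, 0 at an unadjusted p under 0.05, and 0 by edgeR). For Irf7 it was 0.89 (limma adjusted p = 1), and without the library with proximal markers 0 of 9 were called as well.

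After DSS in the T/T colony, 0 of the 8 members other than Gvin1 were called between T/T and WT, as were 0% of all genes, with none of the 8 at an unadjusted p under 0.05 in limma and none called by edgeR or DESeq2. Gvin1 was at 142, 1853 and 122 normalized counts in T/T and 105, 47.9 and 36.2 in WT. T/T replicate 2 stood far above the other 5 libraries. The WT libraries are among those on which Gvin1 was chosen, so its values here are a description with no test. Ifit1 spanned 250 to 913 in T/T and 84.7 to 1204 in WT. Without the libraries whose long transcripts were low, which leaves 2 T/T libraries and 1 WT library, 0 of the 8 were called, and the median change of all 9 was -0.53 in place of 0.67. The lone WT library is assumed to vary like the others in that fit.

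DSS against baseline was compared in each genotype. Rsad2 rose in both groups of the Mtg16-/- colony. In WT mice it was at 963, 778 and 762 normalized counts after DSS and 310, 405, 430 and 509 before. In Mtg16-/- mice it was at 1791, 771, 1169 and 1528 after and 500, 612, 707 and 442 before. No library after DSS lay below any untreated one of its own genotype.

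The change of Rsad2 was 1.03 ± 0.20 in WT (2.04-fold, limma adjusted p = 0.0135) and 1.17 ± 0.26 in Mtg16-/- (2.25-fold, adjusted p = 0.016). The exact permutation p was 0.0286 in each, the smallest these designs allow. It was the only one of the 9 called in WT, where 4.62% of all genes were called. Without WT replicate 1 after DSS the WT change was 0.92 and not called (adjusted p = 0.0609), and without Mtg16-/- replicate 4 after DSS the Mtg16-/- change was 1.07 and not called (0.0538). Without the library with proximal markers it was 1.22 (0.00951). Untreated and DSS libraries of this colony carry different numbers in their names, so DSS and that number cannot be told apart.

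Ddx60 fell in Mtg16-/- crypts after DSS. It was at 502, 1219, 1322 and 1209 normalized counts after DSS against 2402, 4734, 1719 and 1894 before. The groups did not overlap, and the change was -1.31 ± 0.38 (limma adjusted p = 0.0373). With Rsad2 it made 2 of 9 called, where 23.5% of all genes were called, 12.6% higher and 10.9% lower. The call of Ddx60 was the less stable one. It was lost when any 1 of 5 libraries was left out, namely untreated replicates 1 and 4 and DSS replicates 1, 3 and 4 (adjusted p = 0.0503 to 0.0812), and when a trend with transcript length was removed (-1.11, 0.056). Without the library with proximal markers it was -0.996 (0.0327).

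In WT mice of the Mtg16-/- colony Ddx60 was at 434, 1521 and 1311 normalized counts after DSS and 1811, 1451, 2573 and 4950 before, a change of -1.34 that was not called (limma adjusted p = 0.139) and was -0.77 (0.394) without DSS replicate 1. Irf7 was lower in all 3 DSS libraries (2861, 2394 and 3304) than in the 4 untreated ones (3683, 3492, 4239 and 7648), with a change of -0.68 (adjusted p = 0.161). Of the 8 members other than Rsad2, Gvin1 was at -1.55, a value whose sign rested on 1 library (1.67 without DSS replicate 2), and the other 7 had changes from -1.34 to -0.32. Summed with its near-identical neighbor Gm4070, Gvin1 was at 1000 to 3166 normalized counts after DSS and 1637 to 6102 before, with overlapping groups. In all, 4 of the 9 had an unadjusted p under 0.05, a count given without the share of all genes at that limit.

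In T/T crypts, 0 of 9 members were called after DSS, against 4.07% of all genes, with 1 at an unadjusted p under 0.05 and none called by edgeR or DESeq2. That 1 was Isg15, at 1405, 1040 and 1603 normalized counts after DSS against 879, 1104, 615 and 647 before (0.75 ± 0.26, limma adjusted p = 0.149). Rsad2, which rose in the other colony, was at 225, 340 and 84.2 after and 229, 437, 396 and 274 before, a change of -0.79 (95% interval -1.87 to 0.29, adjusted p = 0.331). The difference of the Rsad2 change between colonies was not tested. Ddx60 changed by -1.85 (adjusted p = 0.285), and by -1.58 (0.204) without the libraries whose long transcripts were low. Without them Rsad2 was at -0.39 (limma adjusted p = 0.431) and Isg15 at 0.67 (0.237). In both genotypes of the T/T colony, DSS libraries carry number 5740 and untreated distal ones 5094, so DSS and that number cannot be told apart there either.

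The contrast used to choose Gvin1 was WT DSS against baseline in the T/T colony, and its values are a description. Gvin1 was at 96.7, 44.4 and 34.3 normalized counts after DSS and 1935, 1917 and 3166 before, which is 42.2-fold lower. Summed with Gm4070, it was at 197, 113 and 540 after and 4957, 5269 and 7388 before. Ddx60 was at 124, 83.7 and 616 against 2110, 2249 and 2739, or 12.6-fold lower. The other 7 members had overlapping groups, with changes from -1.62 (Rsad2) to 0.23 (Isg15). Over all genes 35.6% were past the threshold, from which nothing is read about the members (1897 higher and 2936 lower, or 2178 and 2194 under the scaling of edgeR).

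The low values in that contrast sat partly in the libraries with low long transcripts. WT replicates 1 and 2 after DSS, which were such libraries, had Ifit1 at 113 and 78.6 normalized counts, whereas replicate 3 had 1141. Rsad2 was 68.8 and 64.1 against 314 in the same order, and Gbp2 1739 and 1248 against 7290. Gvin1 was low in all 3. Without replicates 1 and 2 the change of Ddx60 was -1.93 in place of -3.65.

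Gvin1 did not move in this way in every DSS comparison. Its change was -1.55 (95% interval -7.78 to 4.68) in WT of the Mtg16-/- colony, -0.13 (-1.71 to 1.45) in Mtg16-/- and -1.71 (-4.56 to 1.15) in T/T. None was called in limma (adjusted p = 0.778, 0.902 and 0.398). The first rested on 2 libraries at 0, for it was 1.67 without WT DSS replicate 2 and -4.22 without untreated WT replicate 1. The second was 0.39 without the library with proximal markers. T/T replicate 2 after DSS had 1805 normalized counts, within the untreated T/T range of 144 to 2687, and replicates 1 and 3 had 143 and 124. Summed with Gm4070, the levels after DSS and before were 1000 to 3166 and 1637 to 6102 in WT of the Mtg16-/- colony. They were 1872 to 5033 and 2756 to 8038 in Mtg16-/- mice, and 328 to 3556 and 501 to 7661 in T/T mice. These ranges overlapped in each comparison.

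**Figure D3:**
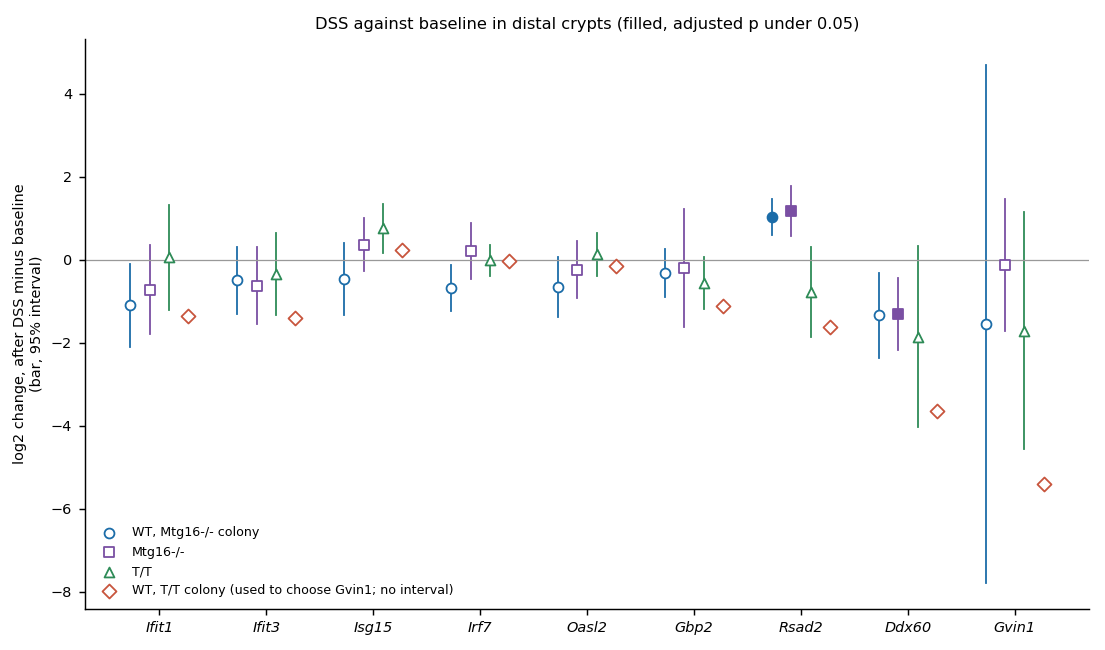
Log2 change after DSS against untreated distal crypts for the 9 genes, with 95% intervals, in WT and Mtg16-/- mice of the Mtg16-/- colony and in T/T mice. The red diamonds are WT mice of the T/T colony, scaled within their own table and shown without intervals because that contrast chose Gvin1. Rsad2 was above 0 in the Mtg16-/- colony (1.03 and 1.17) and at -0.79 in T/T mice, and the interval of Gvin1 in WT ran from -7.78 to 4.68.

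Other cells increased in some of the DSS isolates. The summed myeloid markers were 6002 to 18237 normalized counts after DSS against 879 to 2247 before in Mtg16-/- mice, with 7 of 8 markers higher, and 1195 to 3748 against 625 to 1302 in WT of that colony, with 2 of 8 higher. Fibroblast markers summed to 394 to 3873 against 51.4 to 155 in Mtg16-/- mice and 346 to 432 against 30.7 to 207 in WT. Those of B and plasma cells summed to 13614 to 19913 against 9990 to 12137 in Mtg16-/- mice, with 4 of 6 markers higher, and 13125 to 18019 against 11043 to 12990 in WT, with none of the 6 called. In T/T mice the myeloid sums were 2082 to 2655 against 974 to 1568. The part of these cells in the Rsad2 rise was not tested.

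The wider list of type I and III response genes had calls in both directions in the Mtg16-/- colony after DSS. In Mtg16-/- mice 3 of 46 rose and 5 fell (median -0.28), against 12.6% and 10.9% of all genes. Beside Rsad2 the risers were Mx2 (2.29, limma adjusted p = 0.0106) and Ifitm3 (1.40, 0.00271), both antiviral, and Herc6 (-1.27, 0.0225) and Oas1b (-1.08, 0.0395) were among those that fell. In WT of that colony 2 rose, Mx2 (2.00, limma adjusted p = 0.00138) and Rsad2, and 3 fell, Ifit1bl2 (-1.98, 0.039), Ifit3b (-1.35, 0.0267) and Ifit1bl1 (-1.13, 0.0462), where 469 of all 13938 genes rose and 175 fell. In T/T mice 2 of 46 rose, Usp18 (1.27, limma adjusted p = 0.0419) and Ifitm3 (1.19, 0.0422), and none fell, where 349 of all 13832 genes rose and 214 fell.

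Of the interferon gamma list, 1 of 34 rose in WT of the Mtg16-/- colony (Gbp11), 2 of 35 in Mtg16-/- (Gbp11 and Nos2, 2.01, limma adjusted p = 0.00813) and 3 of 34 in T/T mice. The latter were Ido1 (2.29, limma adjusted p = 0.0295), Nos2 (1.82, 0.0296) and the chemokine Cxcl10 (1.59, 0.045). Over all genes 469 of 13938, 1805 of 14312 and 349 of 13832 rose in the same order. None of the 6 receptors was called in these 3 comparisons.

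Tumors were compared with untreated distal crypts of the same colony. In WT mice 5 of the genes other than Gvin1 were called, 2 higher in tumors (Ifit1 and Ifit3) and 3 lower (Irf7, Oasl2 and Ddx60). A call was more common than not over all genes, 62.9%, with 33.4% higher and 29.5% lower. In T/T mice 3 of the 9 were called, all lower (Isg15, Irf7 and Oasl2), against 61.5% of all genes, 32% higher and 29.4% lower. Whole tumors and isolated crypts differ in preparation and in the number that opens their library names, and neither can be told apart from tumor.

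Of the 9, Ddx60 fell most in WT tumors. It was at 1143, 649 and 933 normalized counts in tumors and 2128, 2307 and 2808 in crypts, with no overlap (-1.44 ± 0.20, limma adjusted p = 0.000345, exact permutation p = 0.1, the smallest 3 against 3 allows). Ifit3 was at 477, 380 and 1195 against 249, 261 and 218, again with no overlap (1.31 ± 0.38, limma adjusted p = 0.0153). Ifit1 was at 1063, 590 and 1434 against 528, 643 and 544, where tumor replicate 2 lay among the crypts (0.76 ± 0.29, adjusted p = 0.0461).

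The calls of Ifit1 and Irf7 (-0.68, limma adjusted p = 0.0415) were each lost in 5 of the 6 fits that left out 1 library, and those of Ifit3 and Oasl2 (-0.61, 0.0169) in 1. The member count ran from 1, without WT crypt replicate 3, to 5. It was 3 without WT crypt replicate 1 or 2 or WT tumor replicate 1. The call of Ddx60 held in all 6.

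In T/T mice Irf7 was at 1579, 2566 and 1543 normalized counts in tumors and 3773, 4504, 3415 and 3317 in crypts. Isg15 was at 291, 514 and 242 against 879, 1104, 615 and 647, and Oasl2 at 1498, 2442 and 1219 against 3385, 4732, 3415 and 2588. Every tumor lay below every crypt library for these 3 genes.

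The changes were -1.02 ± 0.20 for Irf7 (limma adjusted p = 0.00288), -1.25 ± 0.31 for Isg15 (0.00847) and -1.07 ± 0.27 for Oasl2 (0.0103), each with an exact permutation p of 0.0286, the smallest allowed. Without the crypt replicate whose long transcripts were low they were -1.01 (limma adjusted p = 0.00497), -1.20 (0.0155) and -1.08 (0.0155). Ddx60 changed by -0.70 (limma adjusted p = 0.404), and by -1.33 (0.0186) without that replicate. Gvin1 was 1138 to 4212 normalized counts in T/T tumors and 1865 to 3362 in WT tumors, and was not called in T/T mice.

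Between T/T and WT tumors 0 of 9 were called, as were 0% of all genes, with 3 members at an unadjusted p under 0.05 in limma and none called by edgeR or DESeq2. Those 3 were lower in T/T tumors by level. Ifit1 was at 431, 942 and 517 normalized counts in T/T and 1390, 775 and 1888 in WT (-1.09, limma adjusted p = 0.998), with Ifit3 at -1.07 and Rsad2 at -0.60 at the same adjusted p. All 3 had overlapping groups, and the median change of the 9 members was -0.60.

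Tumors held more RNA of some other cells. Fibroblast markers summed to 97784 to 137420 normalized counts in tumors and 23.6 to 1029 in untreated distal crypts of the same colony. Myeloid markers summed to 19567 to 38282 against 945 to 1568, with all 8 higher in both genotypes. Epithelial markers were lower, at 315040 to 494280 against 679740 to 848600, with all 6 lower. T cell markers summed to 560 to 1465 in tumors and 558 to 2006 in crypts, with Cd4 higher in tumors (4.22 in WT and 4.23 in T/T mice, limma adjusted p = 4.83e-05 and 0.000108) and Cd8a lower (-2.13 and -1.40, 0.00106 and 0.0115). Their part in the member differences was not tested.

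On the wider lists the tumors went both ways. In WT mice 9 of 46 type I and III response genes were higher in tumors and 16 lower (median -0.18), and in T/T mice 5 and 15 (-0.43), where 33.4% and 29.5% of all genes were in WT and 32% and 29.4% in T/T mice. Those shares stand for the counts of the other lists as well. Ifitm3 (2.83 in WT and 2.74 in T/T mice, limma adjusted p = 8.64e-07 and 7.25e-06) and Ifi27l2a (2.88 and 2.15) were higher, and Oas1g (-1.95 and -2.05) and Ifit1bl2 (-2.62 and -2.07) lower. The interferon gamma list had 13 higher and 10 lower of 34 in WT and 10 and 11 of 35 in T/T mice, with the chemokine Cxcl9 higher (3.75 and 3.57) and the immunoproteasome subunit Psmb9 lower (-1.52 and -1.62). Of the receptors Ifnar2 was higher (2.56 and 2.63) and Ifngr1 lower (-1.07 and -0.90). Among the signal transducers, 6 of 15 were higher and 4 lower in WT mice and 4 and 4 in T/T mice, with Irf5 at 3.39 and 3.19. Of 15 nucleic acid sensors and adaptors tested, 5 were higher and 8 lower in WT mice (median -0.52) and 5 and 5 in T/T mice (-0.27). In WT mice Tlr7 (3.89) and Tlr9 (3.78), typical of immune cells, were among the higher ones, and Dhx58 (-1.21), Mavs (-1.11) and Ifih1 (-1.08) among the lower ones. The very large GTPase gene Gm8995 was higher as well (2.42 in WT and 3.62 in T/T mice).

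Across libraries the members did not vary as 1 group. The correlation of their deviations from group means over 28 distal crypt libraries, given as a description over libraries that share depth and preparation, was highest between Ifit1 and Ifit3 (r = 0.925), followed by Ifit1 and Ddx60 (0.896) and by Isg15 and Oasl2 (0.886). Isg15 and Irf7 stood at 0.824. Gvin1 had the lowest median r with the other members, 0.222, and 0.209 without the library with proximal markers. Both values keep the libraries where Gvin1 was 0. The median of Gbp2 was 0.38 with that library and 0.603 without it, and its r with Irf7 was 0.0343 and 0.523.

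Part of this followed the long transcripts. The deviations of Ddx60 correlated with the long-transcript difference at r = 0.877 over the same 28 libraries, those of Ifit1 at 0.753, Ifit3 at 0.747 and Rsad2 at 0.716. For Isg15 it was 0.0648, for Irf7 0.108 and for Gvin1 0.115. The value of Gvin1 keeps 2 libraries where its count was 0, whose long-transcript differences were 0.255 and 0.172. The longest transcripts of these genes are 6535 bases for Ddx60, 2656 for Ifit1, 1745 for Ifit3, 4189 for Rsad2, 756 for Isg15, 3240 for Irf7 and 9005 for Gvin1, so the order of r was not that of length.

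**Figure D4:**
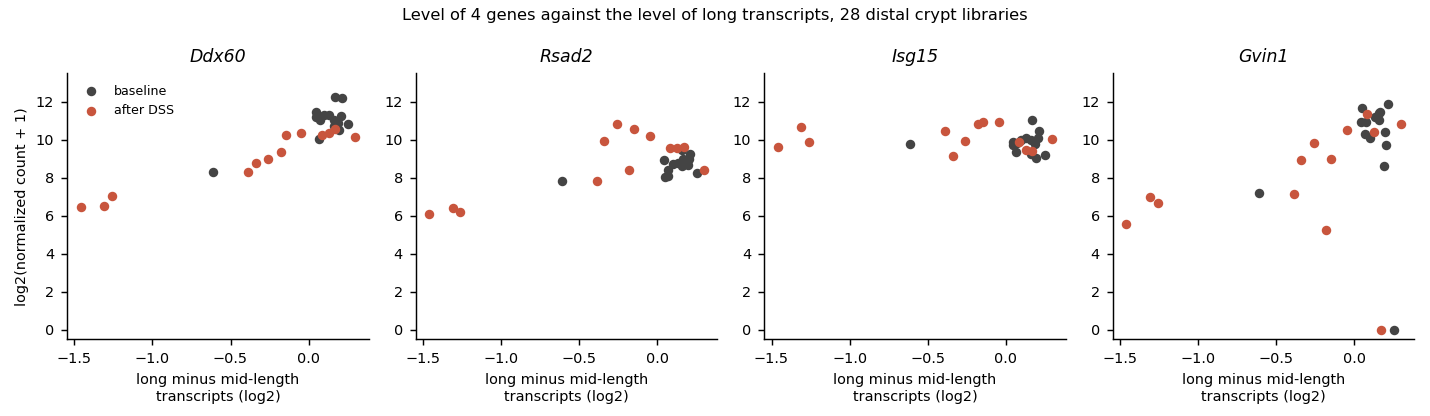
Log2(normalized count + 1) of Ddx60, Rsad2, Isg15 and Gvin1 against the median log2 difference of long (over 8000 bases) and mid-length (2000 to 4000 bases) transcripts in 28 distal crypt libraries, untreated (grey) and after DSS (red). For that difference each gene was set against its own mean over the libraries scaled together. Ddx60 was low in the libraries with low long transcripts (r = 0.877 of deviations from group means), Isg15 was not (0.0648), and the 2 libraries with Gvin1 at 0 lay at 0.255 and 0.172.

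The genes most like the mean of the 8 members other than Gvin1, among 11377 genes compared over the 28 libraries, were Ifi44 (r = 0.951), Rnf213 (0.937), Cmpk2 (0.936), Slfn5 (0.932) and Herc6 (0.926). In all, 9 genes exceeded 0.9. Without the library with proximal markers the first of these, Ifi44, stood at 0.954.

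The genes most like Gvin1 were different ones. They were Trim5 (r = 0.976), Trim12a (0.976), Trim30d (0.928), Myo7a (0.906) and Tenm4 (0.731), and all 6 genes above 0.7 lie on chromosome 7, as Gvin1 does. Gvin1 is at chr7:106156556-106215326 (GRCm38, minus strand), Trim12a at chr7:104299894-104315466 and Myo7a at chr7:98051060-98119524. For the mean of the other 8 members, 43 of the 1075 genes above 0.7 lie on that chromosome and none of the 9 above 0.9.

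In 2 libraries of WT mice of the Mtg16-/- colony, untreated distal replicate 1 and replicate 2 after DSS, these genes stood apart. Gvin1 was 0 in both and 36.6 to 3771 normalized counts in the other 26. Trim12a was 4.19 and 4.24 there (225 to 2111 elsewhere), Trim5 1.40 and 1.70 (32.8 to 475), and Trim30d 51.6 and 22.1 (116 to 2201). Over the other 26 libraries the r with Gvin1 was 0.875 for Trim5, 0.876 for Trim12a, 0.729 for Trim30d, 0.345 for Myo7a and 0.0658 for Tenm4, a comparison chosen after seeing the data. Trim34b, at chr7:104329471-104336909 and chosen after its values were seen, went the other way, at 177 and 154 against 2.19 to 153.

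The counts of Gvin1 cannot be fully separated from those of a copy. Of the 31-base words in its transcripts, 99.7% also occur in another gene and 99% occur in Gm4070 at chr7:105895139-105953967. Gm4070 was 1637 and 2389 normalized counts in the 2 libraries where Gvin1 was 0, within its range of 72.2 to 5941 in the others. Ifit3 shares 61.8% with Ifit3b, Isg15 13.1% and Ifit1 10.8% with other genes, and the other members less than 5%.

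**Figure D5:**
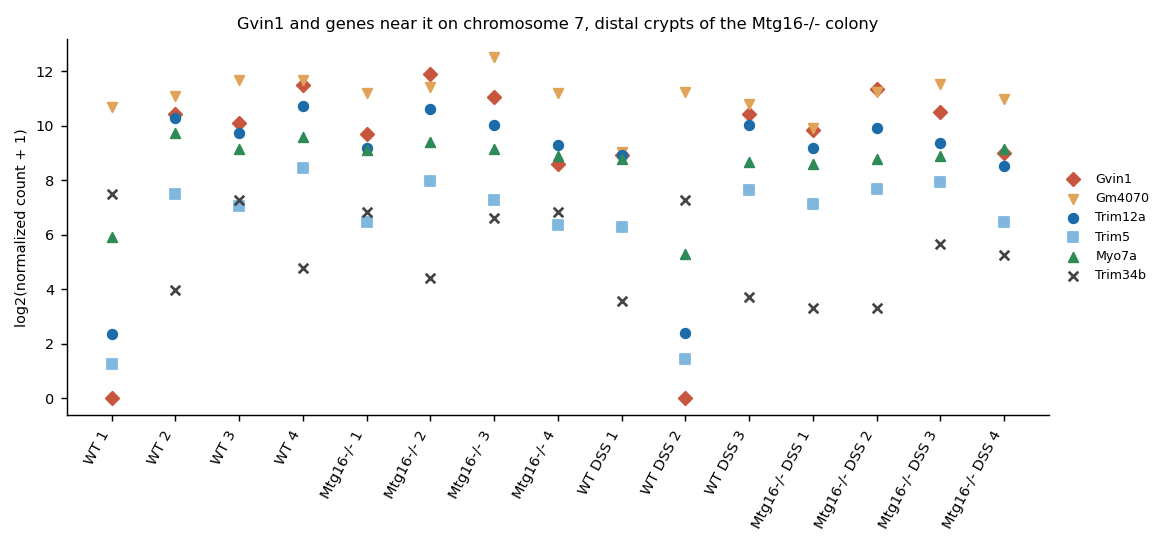
Log2(normalized count + 1) of Gvin1, its near-identical neighbor Gm4070 and 4 other genes of chromosome 7 in the 15 distal crypt libraries of the Mtg16-/- colony, by genotype, treatment and replicate. In WT replicate 1 and WT DSS replicate 2 Gvin1 was 0 and Trim12a about 4.2 normalized counts, while Gm4070 was 1637 and 2389 and Trim34b 177 and 154.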

How the data were processed

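Bulk RNA-seq of poly(A) RNA was analysed from 42 libraries in 14 groups, assigned by GEO's labels. The authors deposited 9 tables of normalized counts per gene, a signal scaled by DESeq2 size factors within each table. The submitters' processing notes name fastp 0.20.0, Salmon 1.3.0, DESeq2 1.26.0, R 3.6.3 and mm10. Columns of the authors' own comparisons (baseMean, log2FoldChange, lfcSE, stat, pvalue, padj) were not used. Because the steps between low values are whole reads, reads were recovered in 7 of the 9 tables (100% whole within 0.01), and 38 libraries were rescaled together (16610 genes). Depth was 32231389 to 74661922 reads, and intervals cover the spread between libraries.

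Changes were tested with limma 3.58.1 (R 4.3.3) on log2(normalized count + 1) for genes with a mean of at least 10, with Benjamini-Hochberg adjustment over all genes tested. Because the files hold normalized counts, count tests on the recovered reads (edgeR 4.0.16, DESeq2 1.42.0) were alternatives. Single values were also tested by exact two-sided permutation. The code was tested on simulated data. Same-numbered libraries were taken as pairs where the correlation of their deviations exceeded 0.1 in every one of 3 or more pairs, which held only for Mtg16-/- against WT after DSS (r = 0.375 to 0.678 in 3 pairs, a hint from the data and not from the labels). Fits with the replicate number as a block kept only numbers found in both groups. The members and lists were chosen with earlier results of these data known. Genes named were the 9 members in every comparison, at most 3 per direction and comparison from lists of response genes, GTPases, ligands, receptors, transducers, sensors and cell markers, and the 5 genes most like the members. Promoters were from RefSeq (GRCm38.p6) and transcripts from GENCODE M21.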

Additional observations from a re-analysis of the deposited data

Results flagged for a closer look

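In the library labelled Mtg16-/- distal replicate 2, which carried proximal segment markers, Ifit1 (2899 normalized counts, others 1023 to 1180), Irf7 (8942, others 3603 to 3997) and Oasl2 (7624, others 3977 to 4430) each lay far above the other 3 libraries of the group. The gap to the nearest library was 0.916, 0.926 and 0.876 of the whole range, above the 95% critical value of Dixon's test for 4 libraries. In Mtg16-/- crypts after DSS, Ddx60 was 502 normalized counts in replicate 1, below the others at 1209 to 1322 (gap 0.862 of the range). Chance alone flags about 1 in 20 groups, and 4 of 36 were flagged here. Among 63 pairs of effects compared between groups, none had every library of one group moving one way and every library of the other the opposite way.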

How the results depend on the processing

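The counts of members called were within 1.5 times their main value in 104 alternatives and moved in 7 that changed a setting. For WT distal against proximal crypts, 2 were called with the library-name number as a covariate and 1 within number 4149, against 6. For Mtg16-/- against WT after DSS, the replicate block called 3 and DESeq2 2, against 0. For WT DSS against baseline, the replicate block called 2 in the Mtg16-/- colony against 1 (Ddx60 at -0.99, limma adjusted p = 0.00688), although these numbers pair no samples, while in the T/T colony, the contrast that chose Gvin1, 6 lay past the same limit without the libraries with low long transcripts, against 2, with 1 DSS library left that is assumed to vary like the others. In Mtg16-/- DSS against baseline 1 was called with the length trend removed, against 2. Leaving out 1 library gave 5 to 8 members for segment, 0 to 1 for proximal T/T, for Mtg16-/- against WT after DSS and for WT DSS of the Mtg16-/- colony, 0 to 2 for Mtg16-/- DSS and 1 to 5 for WT tumors. For WT DSS of the T/T colony it gave 0 (without untreated WT replicate 2) to 8 (without WT DSS replicate 3), and the counts of that contrast are descriptions, read as no test. No member's called change reversed. The uncalled DSS change of Gvin1 turned in direction, at -4.22 to 1.67 in WT of the Mtg16-/- colony and -0.70 to 0.39 in Mtg16-/- mice when 1 library was left out, and at 0.12 in the latter with the length trend removed. The removal of a length trend, the summing of Gvin1 with Gm4070 and the omission of low long-transcript libraries were chosen after seeing the data, and the cause of each difference was not tested. Over all genes, DESeq2 and limma differed by more than 1.5 times for distal Mtg16-/- (200 and 33), distal T/T (53 and 5), Mtg16-/- after DSS (727 and 91), T/T after DSS (334 and 0), tumors (24 and 0), the colonies (128 and 5), WT DSS of the Mtg16-/- colony (1222 and 644) and T/T DSS (1376 and 563). The replicate block moved the all-gene count from 9 to 32 for proximal Mtg16-/-, 32 to 151 for proximal T/T, 33 to 1 for distal Mtg16-/-, 5 to 0 for distal T/T, 91 to 1266 for Mtg16-/- after DSS, 644 to 1200 for WT DSS of the Mtg16-/- colony, 4833 to 2679 for WT DSS of the T/T colony and 563 to 137 for T/T DSS, and only Mtg16-/- after DSS met the pairing rule. With no filter on low counts, proximal T/T gave 2. Removing a length trend gave 157 for Mtg16-/- after DSS and 9 for T/T after DSS. For distal Mtg16-/- the library-name number as a covariate gave 8, number 4149 alone 2 and number 5094 alone 0, and for the colonies number 5094 alone gave 40. Proximal comparisons between genotypes had no recovered reads, so edgeR and DESeq2 were not run there. Small groups and bulk isolates limit all comparisons.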
